A study of Mus musculus with 2 samples.

Results

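Krüppel-like factors are zinc finger transcription factors that bind GC-rich and CACCC-type elements in promoters and enhancers. The 10 genes described here, Klf2, Klf3, Klf4, Klf5, Klf6, Klf7, Klf9, Klf10, Klf13 and Klf15, were taken from the deposited value table as all probe sets that the platform annotation assigns to a single gene with 1 of these symbols. They had 34 probe sets, of 34945 probe sets assigned to 1 gene and of 18193 genes in all. The cells were primary myoblasts, proliferating precursors of muscle fibres, of newborn Sv129 mice, grown on wells coated with laminin and collagen. Treated cells received 100 ng/ml Wnt3a, a ligand of the β-catenin branch of Wnt signalling, for 4 hours in DMEM containing 2% horse serum, which is low in serum, and control cells had the same medium for the same 4 hours without Wnt3a. Each condition was hybridised to 1 Affymetrix 3′ expression array, so every difference below is a single value with no replicate check, no error and no test. The question is how transcript levels respond to a short exposure to Wnt3a.

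The family divides by its partner proteins. Klf2, Klf4, Klf5, Klf6 and Klf7 belong to the branch known mainly for activation through acetyltransferases, Klf3 to a branch that recruits the CtBP corepressors, and Klf9, Klf10 and Klf13 to a branch that binds the corepressor Sin3A, while Klf15 stands by itself. In mouse muscle cells KLF5 is known to act with MyoD and MEF2 during differentiation, KLF2 and KLF4 to act downstream of the kinase ERK5 in myoblast fusion, KLF3 to occupy muscle gene promoters, and KLF15 to control amino acid and lipid use downstream of glucocorticoids.

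Values are given as the deposited intensity, on a linear scale, and differences as log2(intensity + 1) on the Wnt3a array minus that on the control array. A probe set counted as measured where it reached a floor of 6 on that log2 scale, an intensity of 63, on at least 1 array. This floor marks a brightness rather than the detection of a transcript, and the intensities of different probe sets do not compare the abundance of different transcripts. Of the 34 probe sets 24 reached the floor, and of the 10 genes 9 did so on their brightest probe set, the 1 with the highest mean over both arrays. Klf15 was below it, with an intensity of 23.1 on the Wnt3a array and 26.6 on the control array. Klf15 is therefore left out of the counts, and no fold is given for it.

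Klf5 was the only family member with a difference of 1.5-fold or more between the 2 arrays on its brightest probe set. It was 1 of 9 measured members past that fold on the high side, where 0.886% of all 11397 measured genes lay, and 0 of 9 members passed it on the low side, where 0.342% of the genes lay. No member reached 2-fold, which 0.254% of the measured genes did on the high side and 0.0614% on the low side. The other 8 measured members all had differences under 0.2 in size, from -0.18 for Klf9 to 0.09 for Klf6. Over the 9 genes 4 differences were positive and 5 negative, beside 47.3% and 51.2% of all measured genes, and the median was -0.052 beside -0.0057 for all measured genes; all 5 negative ones turned positive when the arrays were scaled on their spike-in controls.

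That scaling sets the reading of every small difference below. The 18 hybridisation and 24 poly-A spike-in probe sets were all lower on the Wnt3a array, with median differences of -0.17 and -0.21, and scaling on all 42 adds 0.19 to every difference. The directions given are those of the deposited values, which are relative to the bulk of the probe sets. Differences of the central 95% of measured genes ran from -0.33 to 0.33. Probe sets of the same gene differed with a pooled SD of 0.12 (from the 5084 genes that had more than 1 probe set at the floor). This is a spread between probe sets, of whatever source, and not a spread between cultures.

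**Figure D1:**
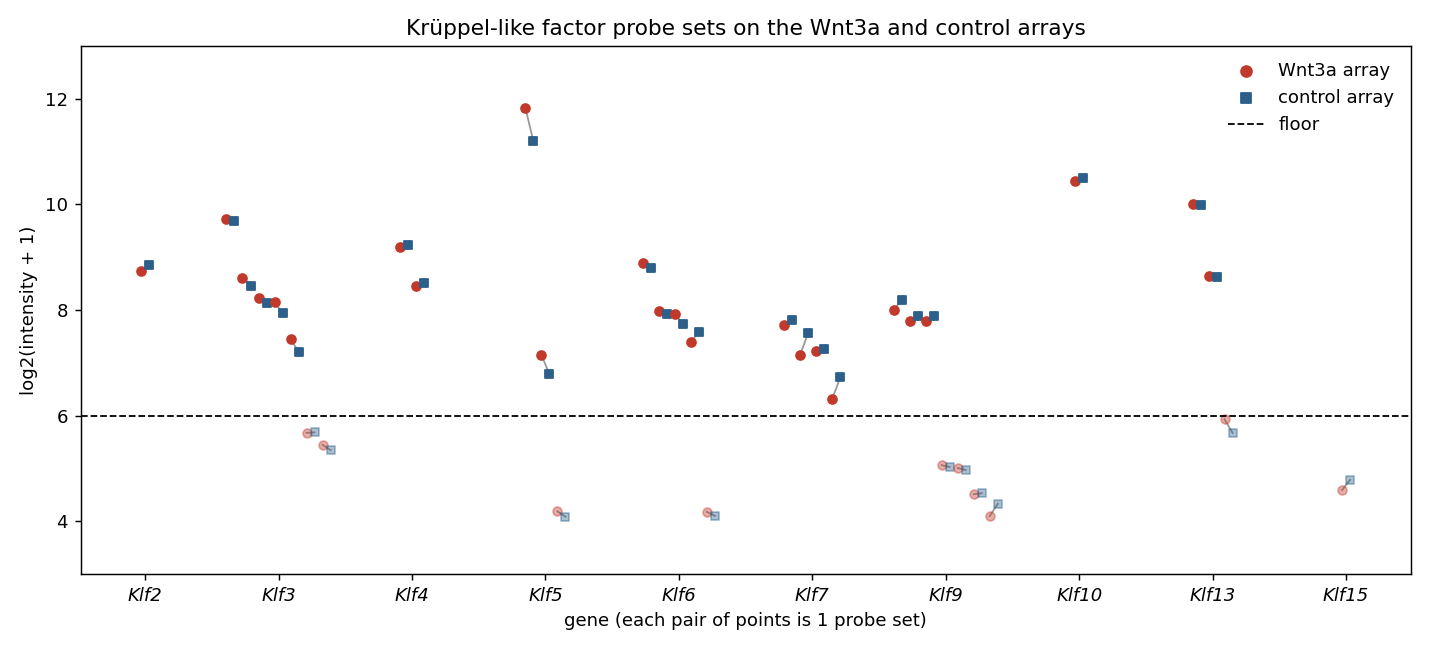
Log2(intensity + 1) of the 34 probe sets of the 10 genes, with the Wnt3a array as a red circle and the control array as a blue square in each pair, the floor of 6 as a dashed line and probe sets below it drawn pale. The pair of Klf5 at the top, at 11.83 with Wnt3a and 11.20 in the control, is the one with the widest vertical gap, while Klf15 lies below the floor on both arrays.

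Klf5 encodes an activator known from proliferating epithelial and smooth muscle cells, and in muscle cells from differentiation. Its brightest probe set (1451021_a_at, of the kind that can detect several transcripts of 1 gene) had an intensity of 3633 on the Wnt3a array and 2344 on the control array, a 1.55-fold difference (0.63 on the log2 scale). A second probe set (1451739_at) had 141 with Wnt3a and 110 in the control, 1.29-fold higher (0.36). The last (1430255_at) was below the floor, at 17.3 with Wnt3a and 16.0 in the control. Both measured probe sets were thus higher with Wnt3a, by unequal amounts, and 1 of the pair passed 1.5-fold. Of the 11397 measured genes 86 (0.755%) had a difference as high as that of the brightest probe set or higher. For the 3411 measured genes with a mean of 10 or more on the log2 scale, the range in which Klf5 lies, the central 95% ran from -0.26 to 0.25. The size of the Klf5 difference rested on the choice of probe set, since it was 0.50 as the median of the probe sets at the floor and 0.37 as the mean of all 3, both under 1.5-fold. Under spike-in scaling it was 0.82.

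Because KLF5 is known from epithelia and smooth muscle, markers of both are given beside it. Of 7 markers of epithelium and keratinocytes 2 reached the floor, Epcam at 195 with Wnt3a and 177 in the control and Krt8 at 108 with Wnt3a and 102 in the control, while Krt5, Krt14, Krt18, Cdh1 and Trp63 were below it on both arrays. The summed intensity of the 7 was 465 on the Wnt3a array and 434 on the control array. Of 4 markers of airway epithelium 3 were measured, 1 higher and 2 lower, with Scgb1a1 at 61.2 with Wnt3a and 334 in the control, at least 5.23-fold lower, and Sftpc at 36.8 with Wnt3a and 78.3 in the control, at least 1.24-fold lower. Sftpb was at 140 with Wnt3a and 131 in the control, and Foxj1 was below the floor on both arrays. Of 5 markers of smooth muscle and pericytes only Acta2 was measured, at 8628 with Wnt3a and 6867 in the control (0.33), while Myh11, Cnn1, Pdgfrb and Rgs5 were below the floor, and the 5 summed to 8781 with Wnt3a and 7006 in the control. That last sum was almost all Acta2. Whether cells of any of these types were present was not tested, nor was any part of theirs in the Klf5 value. In such bulk samples fewer cells of a type and less RNA per cell cannot be told apart.

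**Figure D2:**
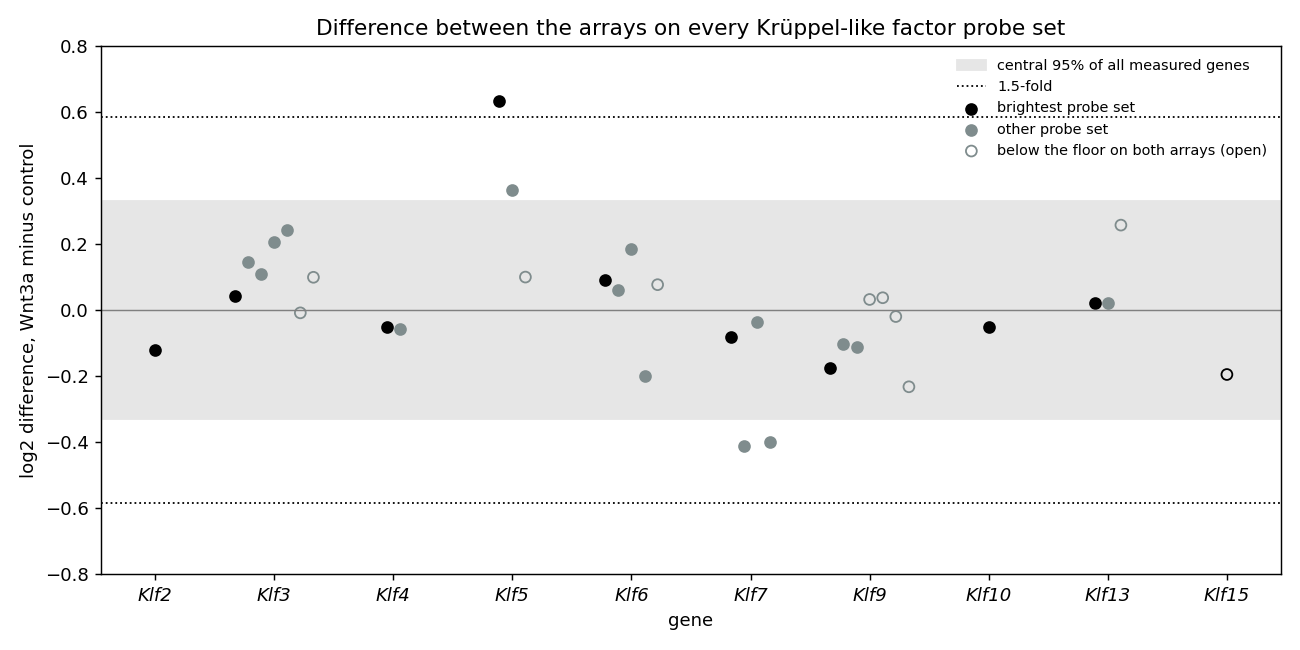
Log2 difference, Wnt3a minus control, on every probe set of the 10 genes, with the brightest probe set of each gene in black, other probe sets in grey and open circles for those that reached the floor on neither array; the grey band is the central 95% of all measured genes (-0.33 to 0.33) and the dotted lines mark 1.5-fold. Klf5 at 0.63 lies past the upper line, its second probe set at 0.36 and those of Klf7 at -0.41 and -0.40 lie outside the band, and all other points lie inside it.

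Klf2 and Klf4, known as a pair from endothelium and as ERK5 targets in mouse myoblasts, differed little between the arrays. Klf2, which also keeps T cells quiescent, had an intensity of 424 with Wnt3a and 462 in the control on its 1 probe set (-0.12, and 0.07 under spike-in scaling). Klf4, one of the reprogramming factors and a regulator of epithelial differentiation, had 583 with Wnt3a and 604 in the control on the brighter probe set (-0.05) and 350 with Wnt3a and 364 in the control on the other (-0.06). Those differences of Klf4 lay 0.0052 apart and became 0.14 and 0.13 under spike-in scaling. Both genes were therefore close to their control values, on the low side in the deposited values and on the high side after spike-in scaling. Of 8 endothelial markers only Kdr (65.8 on both arrays) and Tek (39.5 with Wnt3a and 70.4 in the control, at least 1.12-fold lower) reached the floor, and the other 6 were at 37.2 or less on both arrays.

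Klf6 and Klf7 complete the activator branch. Klf6, a widely expressed gene induced in wounding and fibrosis, had 472 with Wnt3a and 443 in the control on its brightest probe set (0.09). Its other probe sets at the floor disagreed in sign, with 251 with Wnt3a and 241 in the control (0.06), 242 with Wnt3a and 213 in the control (0.18), and 167 with Wnt3a and 192 in the control (-0.20). Of the 7 members with more than 1 measured probe set, Klf6 was the only one whose probe sets did not share 1 sign in the deposited values. Under spike-in scaling those of Klf7 did not share 1 sign either. The share over all genes was not computed for this count. The last of these Klf6 values stayed negative under spike-in scaling, at -0.0093, and the others stayed positive.

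Klf7, known from axon growth in neurons and from restraint of fat cell formation, showed the lowest values of the family, but not on its brightest probe set. That probe set (1419354_at) had 211 with Wnt3a and 223 in the control (-0.08). A pair of dimmer ones gave 1.33-fold and 1.32-fold lower values, 142 with Wnt3a and 189 in the control (1449439_at, -0.41) and 79.2 with Wnt3a and 105 in the control (1419356_at, -0.40). The remaining one (1419355_at) was at 149 with Wnt3a and 153 in the control (-0.03). All 4 were lower with Wnt3a in the deposited values, while under spike-in scaling the brightest and the remaining one turned positive (0.11 and 0.15) and the others stayed negative (-0.22 and -0.21). Among genes with at least 3 probe sets at the floor, 24.9% had all of them lower, a share not matched to the 4 of Klf7. The annotation gives all 4 probe sets of Klf7 the same source sequence. No probe set of the family reached 1.5-fold on the low side, and 1 of 24 did so on the high side, beside 0.420% and 0.774% of all 19760 probe sets at the floor.

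Klf3, the CtBP-binding repressor of the family, was slightly higher with Wnt3a on every measured probe set in the deposited values. Under spike-in scaling these probe sets were at 0.23 to 0.43. Its brightest probe set had 848 with Wnt3a and 824 in the control (0.04). The other 4 at the floor had 390 with Wnt3a and 352 in the control (0.15), 300.4 with Wnt3a and 279 in the control (0.11), 283 with Wnt3a and 245 in the control (0.21), and 174 with Wnt3a and 147 in the control (0.24). The brightest probe set thus showed the smallest difference of the 5, and the dimmest the largest. Of genes with at least 3 probe sets at the floor 16.0% had all of them higher, a share not matched to the 5 of Klf3. These 5 come from 5 different source sequences. The remaining 2 probe sets of Klf3 were below the floor, with -0.01 and 0.10.

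Promoter windows are given for Klf3 and Klf7, the members with 4 or more measured probe sets of 1 sign, higher for Klf3 and lower for Klf7 in the deposited values, where 2 of the Klf7 values turned positive under spike-in scaling. They are shown because KLF proteins themselves bind CACCC elements and family genes are known to regulate one another. Each runs 5′ to 3′ on the gene's strand, from 250 bases before to 50 after the start annotated by RefSeq in GRCm38.p6, with every CACCC, or GGGTG for the other strand, in capitals. Klf3 is at chr5:64803271-64803570 on the plus strand and Klf7 at chr1:64121340-64121639 on the minus strand.
Klf3: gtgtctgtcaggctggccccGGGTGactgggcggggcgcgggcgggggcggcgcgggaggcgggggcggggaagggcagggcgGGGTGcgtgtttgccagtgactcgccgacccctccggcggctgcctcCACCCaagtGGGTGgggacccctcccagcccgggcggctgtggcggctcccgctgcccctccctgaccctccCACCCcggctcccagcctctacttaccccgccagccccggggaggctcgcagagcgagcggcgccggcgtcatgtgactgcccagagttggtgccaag
Klf7: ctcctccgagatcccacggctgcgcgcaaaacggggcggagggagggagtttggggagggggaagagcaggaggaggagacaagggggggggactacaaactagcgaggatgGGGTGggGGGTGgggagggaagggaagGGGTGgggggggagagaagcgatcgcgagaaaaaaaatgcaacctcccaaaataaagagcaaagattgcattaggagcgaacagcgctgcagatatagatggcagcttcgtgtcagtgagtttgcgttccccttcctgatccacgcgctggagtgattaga
The Klf3 window holds 5 CACCC matches on both strands together and the Klf7 window 3. Of the 8 members found in the RefSeq promoter table, all but Klf5 and Klf10, 6 hold at least 1 match, as do 57.5% of all 32851 promoter windows of that length. The GC box GGGCGG, searched on both strands, occurs in 7 of the 8, including 6 matches for Klf3 and 1 for Klf7, and in 35.7% of all windows. In Klf3 and in Klf13, 1 base is shared between a CACCC and a GGGCGG match. CTTTGA, the core of the site bound by the TCF/LEF partners of β-catenin, was found on either strand in 1 of the 8, Klf6, and in 16.0% of all windows. A match is a run of letters and not a shown binding site. G and C made up 58.3% (Klf7) to 76.7% (Klf3) of the bases in the 8 windows. The comparison with all windows was not matched for this.

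The Sin3A-binding members were close to their control values too, in the deposited values. Klf9, a glucocorticoid-responsive and thyroid hormone-responsive gene, had 256 with Wnt3a and 290 in the control on its brightest probe set (-0.18), 221 with Wnt3a and 237 in the control on the next (-0.10), and 219 with Wnt3a and 237 in the control on another (-0.11). All 3 were lower in the deposited values and all 3 were higher under spike-in scaling (0.01, 0.09 and 0.08). Its other 4 probe sets were below the floor, at 32.4 or less on both arrays. Klf10, first described in human cells as a TGF-β-inducible early gene, had 1394 with Wnt3a and 1446 in the control on its 1 probe set (-0.05, and 0.14 under spike-in scaling). Klf13, known from lymphocytes, had 1027 with Wnt3a and 1012 in the control on its brightest probe set, and 402 with Wnt3a and 396 in the control on the next, both 0.02. Both of these Klf13 probe sets were at 0.21 under spike-in scaling. Another of its probe sets, below the floor, was at 60.0 with Wnt3a and 50.0 in the control.

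**Figure D3:**
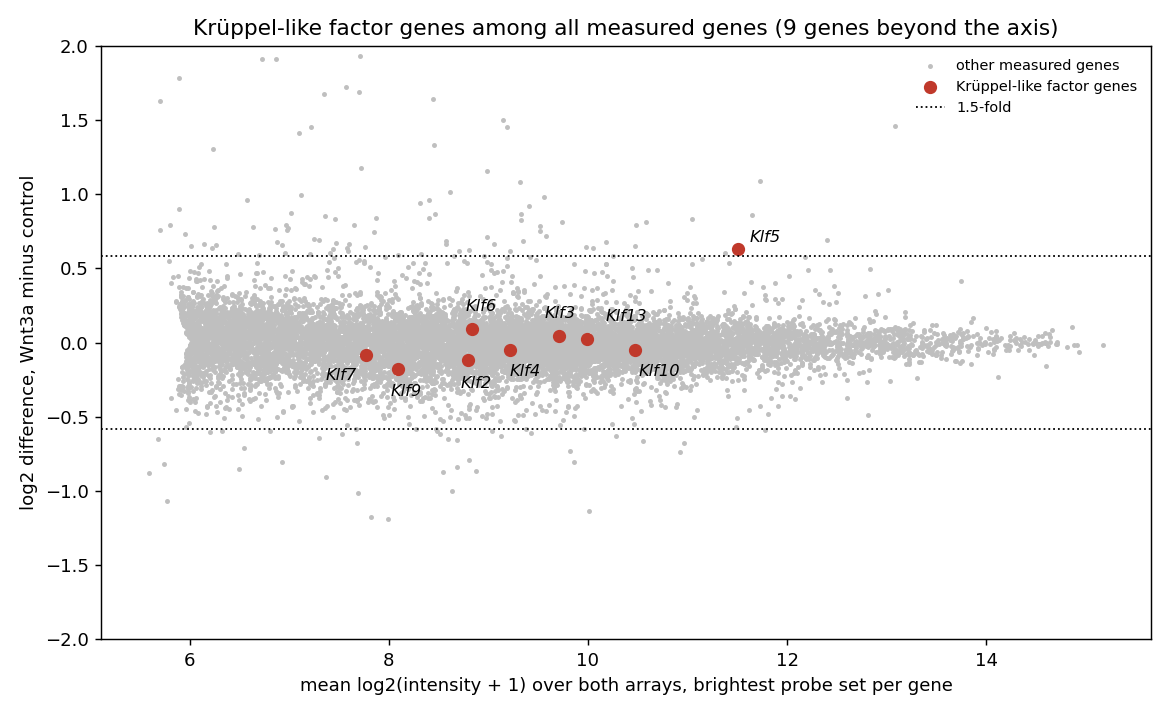
Log2 difference, Wnt3a minus control, against the mean log2(intensity + 1) over both arrays for all measured genes on their brightest probe sets (grey) and the 9 measured Krüppel-like factor genes (red, labelled), with dotted lines at 1.5-fold; 9 genes lie beyond the vertical axis. Klf5, at 0.63, lies above the upper line and above the dense band of grey points, whereas the other 8 members lie within the dense part of the plot, the 5 below 0 turning positive under spike-in scaling.

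The rest of the KLF and SP family, which shares the zinc finger domain, gave no difference of 1.5-fold. Of 16 listed genes 13 had a probe set assigned to 1 gene and 8 were measured, 1 higher and 7 lower, with a median of -0.066 (0.12 under spike-in scaling, with 7 higher). The shares to set beside this list and those below are, in the deposited values, 47.3% higher and 51.2% lower of all 11397 measured genes. At 1.5-fold these shares were 0.886% higher and 0.342% lower. Spike-in scaling adds 0.19 to every difference, and the share of all measured genes higher under it was not computed. The counts higher under that scaling, here and below, therefore have no share to stand beside and are not results about the lists. Klf16, another Sin3A-binding repressor, had 531 with Wnt3a and 687 in the control (-0.37, and -0.18 under spike-in scaling), the lowest of the list. Sp1, the ubiquitous GC box activator, had 1641 with Wnt3a and 1709 in the control (-0.06, and 0.13 under spike-in scaling). Klf11 had 135 with Wnt3a and 151 in the control, Klf12 had 109 with Wnt3a and 120 in the control, and Klf14 had 102 with Wnt3a and 93.9 in the control. Sp7, an osteoblast factor, had 244 with Wnt3a and 257 in the control, Sp6 had 84.9 with Wnt3a and 86.8 in the control, and Klf1, the erythroid founder of the family, had 70.5 with Wnt3a and 71.2 in the control. Sp5, known in other cell types as a direct Wnt target, was below the floor at 29.9 with Wnt3a and 29.2 in the control, and Sp3, Sp4, Sp8 and Klf17 were below it as well.

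Genes that act with the KLF proteins, or that destroy them, were all measured and none reached 1.5-fold. The 15 cofactor and turnover genes split into 8 higher, 6 lower and 1 equal on both arrays, and their median was 0.011 (0.20 under spike-in scaling). Ctbp1, the corepressor that KLF3 recruits, had 6907 with Wnt3a and 6638 in the control (0.06), and the deacetylase gene Hdac1 had 3240 with Wnt3a and 3331 in the control (-0.04, and 0.15 under spike-in scaling). The widest difference, named after its value was seen, was that of the Sin3 complex gene Sap30, at -0.44 (1.35-fold lower) on 1 probe set.

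Upstream of Klf2 and Klf4, the ERK5 and MEF2 genes held 1 member just short of 1.5-fold in the deposited values. Mef2a, which encodes a MADS box factor of muscle genes, had 5656 with Wnt3a and 3786 in the control (0.58, 1.49-fold, and 0.47 to 0.65 on its 6 probe sets). Under spike-in scaling its brightest probe set was at 0.77, past 1.5-fold. Npnt, which encodes nephronectin and is a KLF2 and KLF4 target in mouse myoblast fusion, had 6347 with Wnt3a and 6067 in the control (0.07), with up to 0.28 on its other 4 probe sets. Of the 11 genes of this list 10 had a probe set assigned to 1 gene and 7 were measured, 4 higher and 3 lower, with a median of 0.062 (all 7 higher and 0.25 under spike-in scaling). The kinase genes Map3k3, Map2k5 and Mapk7, the last of which encodes ERK5, named after their values were seen, differed by less than 0.09 in size. Nos3, Thbd and S1pr1, targets in endothelium and lymphocytes, were below the floor on both arrays.

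Genes that respond to glucocorticoids, as Klf9 and Klf15 do, divided into 8 higher and 11 lower of 19 measured, with a median of -0.025 (0.16 under spike-in scaling, with 14 higher). The 2 that differed by at least 1.5-fold were lower with Wnt3a. Sgk1, a kinase gene, had 275 with Wnt3a and 503 in the control, 1.83-fold lower on 1 probe set. Foxo1, which encodes a transcription factor of muscle atrophy, had 555 with Wnt3a and 847 in the control, 1.52-fold lower, with -0.67 to -0.50 on its 3 probe sets. Both stayed lower under spike-in scaling (-0.68 and -0.42), where Foxo1 was under 1.5-fold. Errfi1, an inhibitor of EGF receptor signalling, had 5725 with Wnt3a and 4565 in the control (0.33), and the metallothionein gene Mt1 had 4156 with Wnt3a and 3942 in the control (0.08).

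The genes associated with KLF15 in muscle and heart could be described although Klf15 could not. Of 18 listed genes of amino acid and lipid use 16 had a probe set assigned to 1 gene, and these 16, all measured, split into 8 higher and 8 lower, and their median was 0.0021 (0.19 under spike-in scaling, with all 16 higher). That scaling raises every gene on the array by the same amount, and the share of all genes higher under it was not computed. Angptl4, an inhibitor of lipoprotein lipase, had 1472 with Wnt3a and 918 in the control, 1.60-fold higher on 1 probe set, and was the only member past 1.5-fold. The alanine aminotransferase gene Gpt2 had 5011 with Wnt3a and 5166 in the control (-0.04, and 0.15 under spike-in scaling), and Etfb, an electron transfer subunit, had 2913 with Wnt3a and 2878 in the control (0.02).

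Around Klf10, the TGF-β genes were mixed, with 8 higher and 6 lower of 14 measured (17 listed, 16 with a probe set assigned to 1 gene) and a median of 0.056 (0.25 under spike-in scaling). The ligand gene Tgfb2 had 409 with Wnt3a and 106 in the control, 3.82-fold higher, with 1.92 to 2.09 on its 3 probe sets. Smad4, the shared signal transducer, had 3912 with Wnt3a and 3575 in the control (0.13), and Id3, whose protein blocks DNA binding by basic helix-loop-helix factors, had 5484 with Wnt3a and 5341 in the control (0.04). Tgfb2 alone passed 1.5-fold in this list, while Klf10 itself differed by -0.05 (0.14 under spike-in scaling).

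Cell cycle genes reported as KLF4 or KLF6 targets counted 3 higher and 3 lower of 6 measured (8 listed), with a median of -0.050 (0.14 under spike-in scaling). Cdkn1c, the inhibitor p57, had 280 with Wnt3a and 561 in the control, 2.00-fold lower on 1 probe set. Cdkn1a, the inhibitor p21 and a known KLF4 target, had 14668 with Wnt3a and 14191 in the control (0.05, with 0.32 on its other probe set), and Ccnd1, which encodes cyclin D1, had 9077 with Wnt3a and 10054 in the control (-0.15, and 0.04 under spike-in scaling). Of the genes that act with KLF5 in fat cell formation 4 of 7 were measured, 3 higher and 1 lower, with a median of 0.055 and none at 1.5-fold. Pdgfa, a growth factor gene and known KLF5 target, had 1023 with Wnt3a and 964 in the control (0.09), and Cebpb had 870 with Wnt3a and 855 in the control (0.02). Pparg, Cebpa and Fabp4 were below the floor on both arrays.

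**Figure D4:**
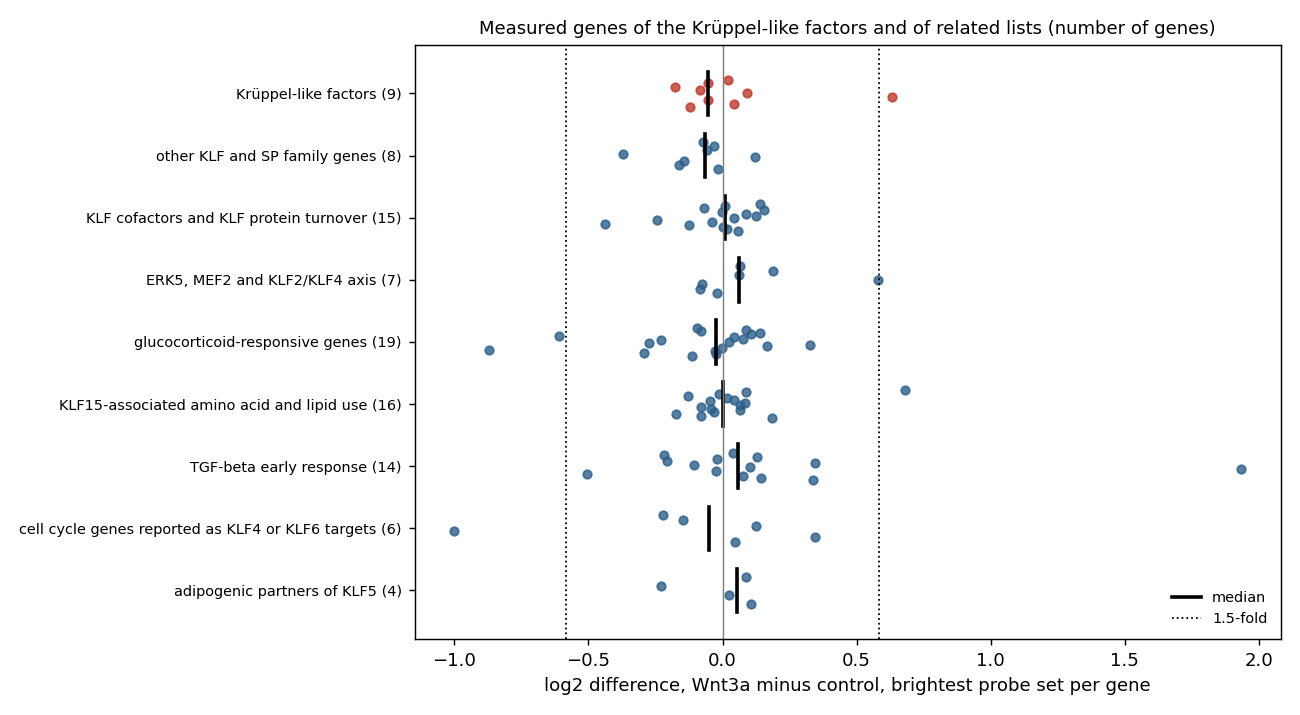
Log2 difference, Wnt3a minus control, of the measured genes in the Krüppel-like factor family (red) and in 8 related lists (blue), 1 point per gene on its brightest probe set, with the median as a black bar and 1.5-fold as dotted lines; the number of genes stands beside each name. All medians lie between -0.066 and 0.062 and all turn or stay positive under spike-in scaling, and the points past the dotted lines are Klf5, Angptl4 and Tgfb2 on the high side and Sgk1, Foxo1 and Cdkn1c on the low side.

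The myoblast label was checked against defining markers. Of 7 myoblast markers 6 were measured, 4 higher and 2 lower with Wnt3a. Msc was below the floor, at 49.0 with Wnt3a and 41.2 in the control. Myf5 was at 5589 with Wnt3a and 3989 in the control (0.49), Des at 2393 with Wnt3a and 1921 in the control (0.32), Chrna1 at 14191 with Wnt3a and 13599 in the control (0.06) and Cdh15 at 3125 with Wnt3a and 3073 in the control (0.02). The 2 lower ones, Myod1 at 9951 with Wnt3a and 10904 in the control (-0.13) and Pax7 at 2165 with Wnt3a and 2357 in the control (-0.12), turned positive under spike-in scaling. The summed intensity of the 7 was 37463 with Wnt3a and 35886 in the control. All 6 fibroblast markers were below the floor, as were the 2 of 3 adipocyte markers that had a probe set assigned to 1 gene. Of 7 leukocyte markers 4 reached the floor, Lyz2, Csf1r, Cd3e and Laptm5, and the 7 summed to 508 with Wnt3a and 499 in the control. Of 4 Schwann cell markers 2 had a probe set assigned to 1 gene. Sox10 was at 171 with Wnt3a and 162 in the control, and S100b was below the floor.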

How the data were processed

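Per the labels' protocols, total RNA was taken up in Trizol and turned into biotinylated cRNA with Affymetrix's 3′ kit. The authors deposited 1 intensity per probe set and array, on a linear scale from 7.07 to 36604 on the Wnt3a array and from 7.09 to 37075 on the control array. RMA, affy and limma are listed in the submitters' processing notes; settings, versions and genome build are not given in the sources used here. Having 1 array per condition limits the precision.

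Control probe sets (64) were not compared. Of the other 45037, 34945 had 1 gene in the platform annotation, 932 several and 9160 none. Differences are of log2(intensity + 1), and a pseudocount of 1 slightly shrinks those of dim probe sets. All 10 members are named; of each other list, up to 6 genes past 1.5-fold and the 2 brightest, and of the KLF and SP list all measured genes; others are said to be chosen after their values were seen, or stand as markers or as genes below the floor. Genes are not named for a like pattern, since over 2 arrays any genes that differ in 1 direction are alike. The members and lists were chosen with earlier results of these data known. The procedure was tested on simulated data with a noise level that was set, not taken from these arrays, and with no shift between arrays. That run checks the code and does not measure the noise of these data. Alternatives covered the pseudocount, the probe set per gene, the scaling, the floor and the fold. The tools were matplotlib 3.10.9, statsmodels 0.14.6, pandas 2.3.3, numpy 2.4.6 and Python 3.11.15.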

Additional observations from a re-analysis of the deposited data

How the results depend on the processing

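No paired analysis was possible because each condition had 1 array, and for the same reason no array could be left out. The count of 1 Krüppel-like factor gene at least 1.5-fold higher became 0 with the mean of all probe sets, 0 with the median over probe sets at the floor and 0 at 2-fold, and it stayed at 1 in the other 10 alternatives. The count of 0 members at least 1.5-fold lower was 0 in all 13. Part of this was fixed beforehand. The floor settings, a lower threshold and spike-in scaling could not take Klf5 out of the count on the high side. On the low side, neither the 2-fold threshold nor spike-in scaling, which raises every difference, could add a gene. The family's median difference of -0.052 became 0.14 under spike-in scaling and moved by less than the spread between probe sets (SD 0.12) in the other 10. Klf5 was positive in all 11 alternatives, from 0.37 to 0.82. The floor settings, centring on the median difference and leaving out some kinds of probe set returned its main value of 0.63 unchanged. Spike-in scaling only adds to that value. These settings therefore say little about its sign. Klf7 was -0.23 as the mean and -0.24 as the median of its probe sets. Among all genes, the counts of 101 higher and 39 lower became 210 and 17 under spike-in scaling, 29 and 7 at 2-fold, and 298 and 308 at the lowest threshold tried, and with a floor of 8 on the log2 scale, which leaves 7768 genes, 60 were higher.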

Other observations

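On 1651 of 45101 probe sets (3.66%) the intensities of the Wnt3a and control arrays differed by a non-zero multiple of 0.5 (within 0.0001), and on 1689 (3.74%) they were identical. The 45101 include the control probe sets. Of the 34 Krüppel-like factor probe sets 3 differed by such a step, and 0 were identical. The 3 were the brightest of Klf7 (211 with Wnt3a and 223 in the control) and 1 each of Klf6 and Klf3. That of Klf6 had 251 with Wnt3a and 241 in the control. That of Klf3 (174 with Wnt3a and 147 in the control) was the one with the largest Klf3 difference at the floor, 0.24.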
